A study of Homo sapiens with 4 samples.

Results

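The genes of the collagens, the laminins, the matrix metalloproteinases (MMPs), their tissue inhibitors (TIMPs) and the ADAMTS proteases were followed in SH-SY5Y neuroblastoma cells after LSD1 knockdown. Members were all genes with a collagen chain, laminin chain, MMP, TIMP or ADAMTS symbol among the probe sets annotated with a single gene, and the brightest probe set on average stood for each gene. This gave 97 of 19775 genes. The cells had been transfected with an interfering RNA targeting LSD1, the histone lysine demethylase that KDM1A encodes (siLSD1, 2 arrays), or with a control siRNA (siControl, 2 arrays), and total RNA was hybridized to Affymetrix arrays of 54675 probe sets. SH-SY5Y is an established human line of sympathetic neuroblast character, so the groups compare transfections of a single line. The submitters' text gives each siRNA 2 independent transfections, and the title of siLSD1 replicate 2 shortens the target's name. Levels are log2 signals after quantile normalization, and fold changes are log2 ratios of siLSD1 over siControl.

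Collagen chains wind in threes into triple helices. Fibrillar collagens form the banded fibres of connective tissue, type IV collagens form the sheet of basement membranes, and laminins, trimers of an alpha, a beta and a gamma chain, polymerize beside that sheet and bind cell-surface integrins. MMPs and ADAMTS proteases cut collagens, proteoglycans and other matrix proteins, and TIMPs block them. In neuroblastoma, matrix genes are known as part of the substrate-adherent, mesenchymal cell state, while SH-SY5Y cells are counted among the adrenergic, neuron-like lines.

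COL4A1 and COL4A2, which encode the chains of the most widespread type IV collagen, lie head to head, so that their promoter windows are read from opposite strands of largely the same DNA. Both genes were measured well above the filter level, and the windows are shown because these neighbouring members share promoter sequence. The sequences, from RefSeq (GRCh38.p14), are 300 bases long and hold each gene's start near their 3′ end, and capitals mark the 226 bases that both windows hold.
COL4A1 (chr13:110307108-110307407, minus strand): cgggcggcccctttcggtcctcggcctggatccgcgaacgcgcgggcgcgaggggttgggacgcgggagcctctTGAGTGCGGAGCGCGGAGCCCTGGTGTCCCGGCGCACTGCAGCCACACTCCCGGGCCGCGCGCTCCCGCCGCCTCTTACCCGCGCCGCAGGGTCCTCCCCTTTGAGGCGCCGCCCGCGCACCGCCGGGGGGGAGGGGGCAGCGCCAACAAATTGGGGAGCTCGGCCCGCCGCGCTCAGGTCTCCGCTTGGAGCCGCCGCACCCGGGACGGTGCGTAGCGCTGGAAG
COL4A2 (chr13:110307034-110307333, plus strand): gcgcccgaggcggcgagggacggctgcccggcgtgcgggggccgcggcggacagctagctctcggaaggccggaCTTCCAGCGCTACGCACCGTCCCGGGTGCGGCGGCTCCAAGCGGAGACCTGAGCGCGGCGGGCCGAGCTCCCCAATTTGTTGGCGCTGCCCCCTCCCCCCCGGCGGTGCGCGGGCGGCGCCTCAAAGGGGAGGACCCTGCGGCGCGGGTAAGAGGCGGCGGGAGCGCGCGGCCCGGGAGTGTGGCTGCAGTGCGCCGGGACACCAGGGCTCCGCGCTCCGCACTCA
The windows were 76.7% (COL4A1) and 77.7% (COL4A2) G and C, against a median of 58.3% over 27305 promoters. Searched on both strands, the GC box (GGGCGG) was found 2 times in the COL4A1 window and 1 time in the COL4A2 window, and the CCAAT box (CCAAT) 1 time in each. The TATA box (TATAAA) was found 0 times in either. Such matches are a description of the letters, not of bound sites.

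RefSeq promoters were matched for 64 of the 97 members. A GC box stood in 25 of the 27 matched promoters of members above the filter level (92.6%) and in 15 of the 37 of members below it (40.5%). Over all genes the shares were 70.4% of 9745 promoters above the filter level and 39.0% of 5639 below it, so a higher share among brighter genes was a feature of the whole array. The TATA box was in 2 of 27 and 9 of 37 member promoters. Its shares over all genes were 5.3% above the filter level and 14.8% below it, and it was in 12.0% of all 27305. The CCAAT box was in 7 of 27 and 15 of 37 member promoters. Its shares over all genes were 37.1% above the filter level and 34.2% below it, and it was in 35.7% of all 27305.

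Of the 97 members, 45 had a mean signal at or above the 40th percentile of all genes (4.12) and were tested, and 52 did not pass this filter. The share that passed differed between families. It was 9 of 11 fibrillar collagens, 2 of 6 type IV collagens, 6 of 26 other collagens, 6 of 10 laminins, 8 of 22 MMPs, 3 of 4 TIMPs and 11 of 18 ADAMTS genes. The dim members included a whole run of neighbouring genes. MMP7, MMP20, MMP27, MMP8, MMP10, MMP1, MMP3, MMP12 and MMP13 follow each other in RefSeq (GRCh38.p14) with gaps under 100 kb, and 0 of these 9 passed, with means from -0.91 to 3.16. The collagenases, stromelysins and matrilysin of this run are known from fibroblasts, epithelia and macrophages. Among the 10 other groups of neighbouring members, each a pair, both genes passed for COL4A1 and COL4A2, COL3A1 and COL5A2, COL6A1 and COL6A2, and ADAMTS1 and ADAMTS5. For LAMB1 and LAMB4, LAMB1 alone passed, and in the other 5 pairs neither did, the remaining type IV pairs among them.

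**Figure D1:**
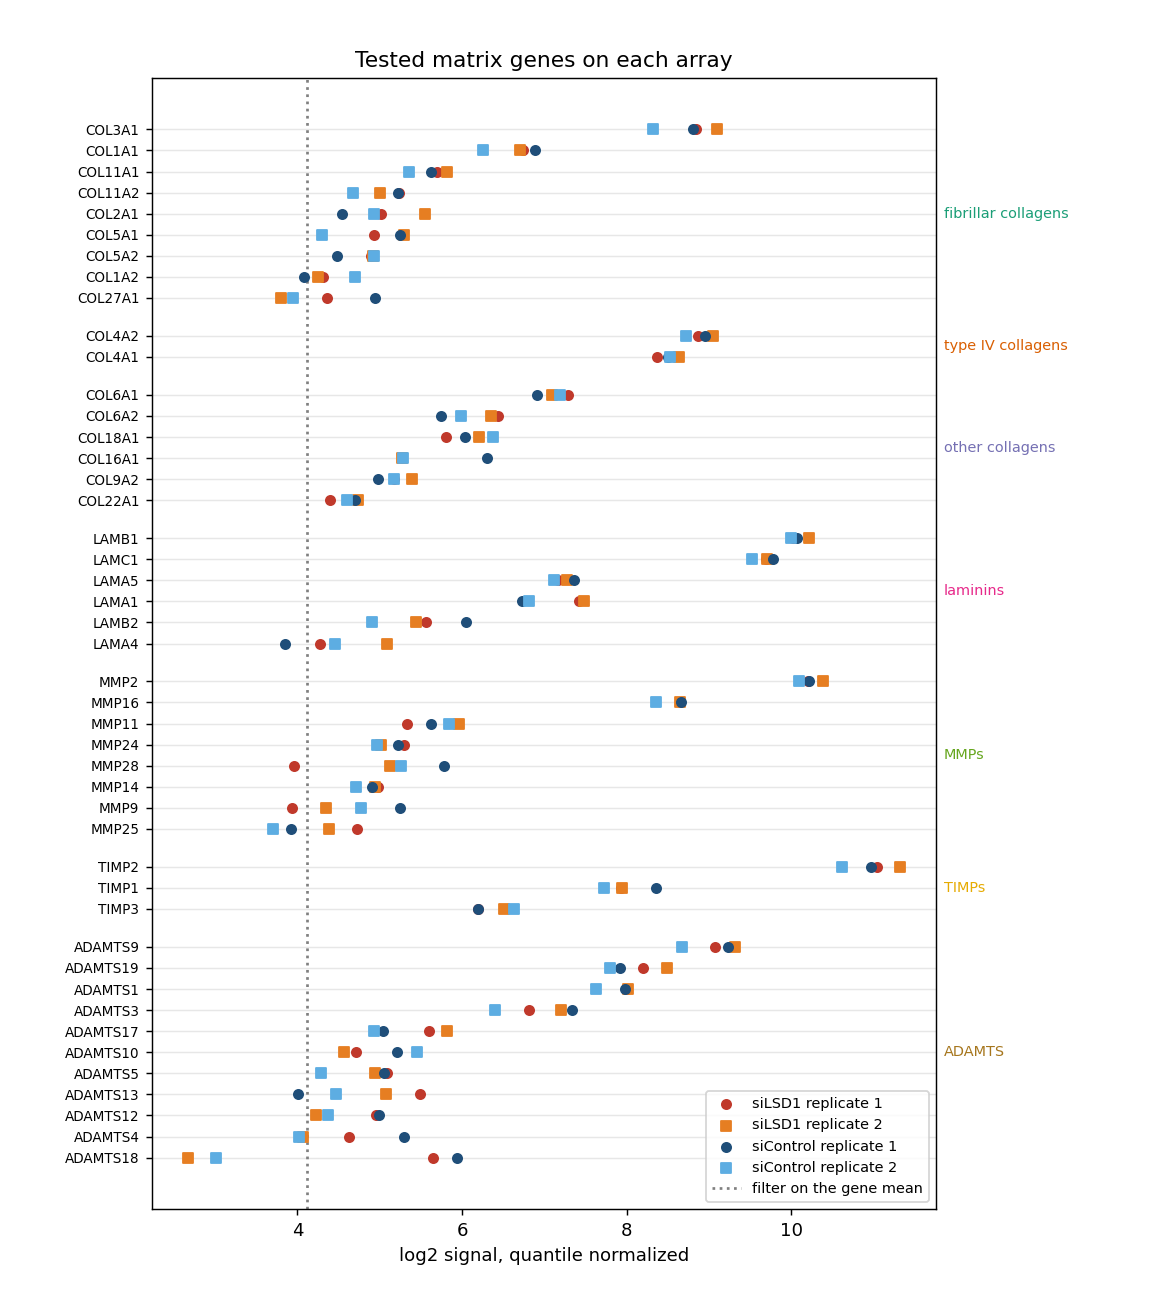
Log2 signal (x axis, quantile normalized) of the 45 members above the filter level (rows, by family) on each array, with circles for replicate 1 and squares for replicate 2. siLSD1 points are red and orange and siControl points are blue. They interleave for most genes, and for LAMA1 both siLSD1 points (7.42 and 7.49) lie clear of both siControl points (6.73 and 6.81).

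The siRNA target checked the labels. KDM1A had log2 signals of 8.40 and 8.54 on the siLSD1 arrays, against 9.79 and 9.78 on the siControl arrays, from the 1 probe set that named it. Its fold change was -1.32 (95% interval -1.69 to -0.95), with both siLSD1 values below both siControl values. The adjusted p over all 11865 genes tested was 0.39 in limma. The array siControl replicate 1 stood apart, with a mean correlation of 0.958 with the others, against 0.972 to 0.973 for the other 3. Markers of the labelled cell type were present, and 9 of 10 measured noradrenergic neuroblast genes were above the filter level, led by GATA3, ISL1 and CHGA.

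No member passed the test. In limma, 0 of the 45 tested members were called higher and 0 lower at an adjusted p under 0.05, as for all genes tested (0% higher, 0% lower), and the smallest adjusted p of a member was 0.9996. At an unadjusted p under 0.05, 4 members had positive fold changes (LAMA1, TIMP2, ADAMTS13 and ADAMTS17) and 0 negative ones. Over all genes tested the shares were 2.29% in the higher and 1.15% in the lower direction. Both siLSD1 arrays lay above both siControl arrays for 12 members and below them for 4, where 16.6% of all genes lay above and 15.1% below. A 2 against 2 comparison leaves wide intervals, and for members such as MMP28 or ADAMTS13 differences of several-fold lay inside them.

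Fold changes of the tested members had a median of 0.13, against 0.0068 for all genes tested. Their signs were positive for 29 members and negative for 16, where 51.3% of all genes tested were positive. Median centring of the arrays, which moved the median of all genes by 0.17, gave 34 positive and 11 negative members. The member median depended on siControl replicate 2, the array with the lowest value of the 4 for 24 of the 45 members (53.3%, against 31.2% of all genes tested). The members' median deviation from their own means was 0.051 and 0.12 on the siLSD1 arrays, and 0.053 and -0.22 on the siControl arrays. Without siControl replicate 2 the members' median fold change was 0.0023, against -0.055 for all genes tested, with 23 members positive and 22 negative. Without siControl replicate 1 it was 0.24, against 0.039 for all genes tested, with 33 positive.

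**Figure D2:**
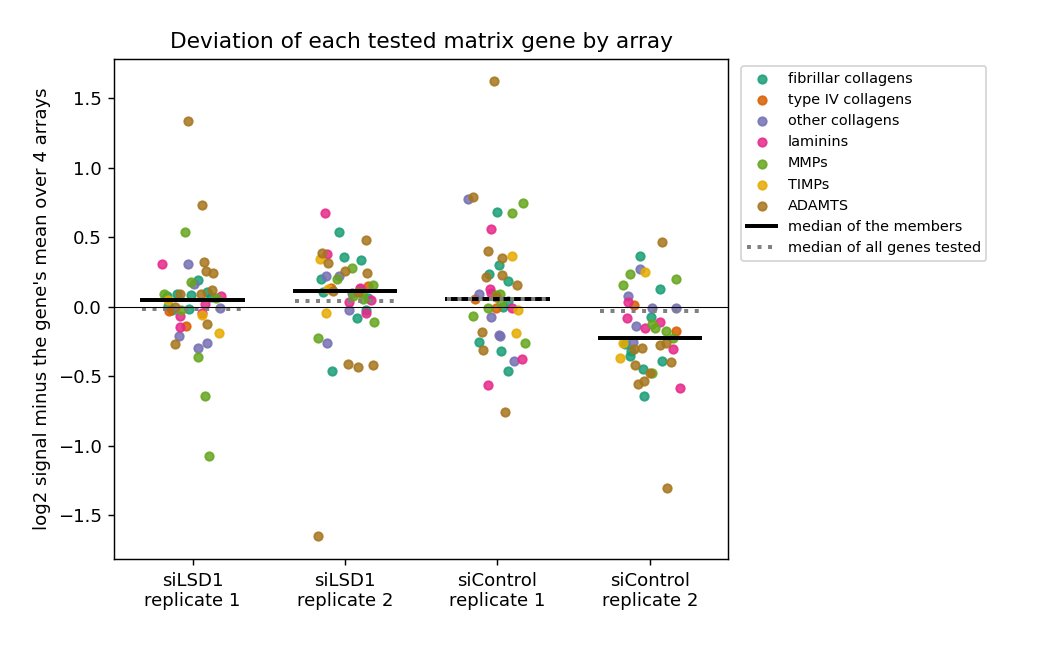
Deviation of each of the 45 tested members from its own mean over the 4 arrays (y axis, log2 signal) by array (x axis), coloured by family, with black bars for the members' median and dotted grey bars for all genes tested. The members' medians are 0.051, 0.12 and 0.053 on both siLSD1 arrays and siControl replicate 1, and -0.22 on siControl replicate 2.

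Fibrillar collagens had positive fold changes for 7 of the 9 tested members and negative ones for 2, with a median of 0.19, and 0 were called. COL3A1, the collagen of distensible tissues such as vessel walls, had signals of 8.84 and 9.10 in siLSD1 cells, against 8.81 and 8.31 in siControl cells. All siLSD1 values were the higher ones, but the lower of them stood only just above siControl replicate 1. Its fold change was 0.41 (95% interval -0.10 to 0.92), and it was 0.16 without siControl replicate 2. COL1A1, the main chain of type I collagen, had signals of 6.74 and 6.71 in siLSD1 cells and 6.88 and 6.25 in siControl cells. The siControl arrays enclosed the siLSD1 arrays, so the fold change of 0.16 turned to -0.16 without siControl replicate 2. COL1A2, the partner chain of COL1A1 in type I collagen, had a fold change of -0.11.

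COL11A1 and COL2A1, both of cartilage, were the other tested fibrillar members with groups that did not overlap. COL11A1, which nucleates thin cartilage fibrils, was at 5.69 and 5.82 in siLSD1 cells, against 5.62 and 5.35 in siControl cells, a fold change of 0.27. COL2A1, the chain of type II collagen, was at 5.01 and 5.55 in siLSD1 cells and at 4.54 and 4.93 in siControl cells, a fold change of 0.54 (95% interval -0.31 to 1.39). In both genes the nearest siLSD1 and siControl arrays were closer to each other than the arrays of a group were. COL11A2, a second chain of type XI collagen, was at 5.23 and 5.01 in siLSD1 cells and at 5.22 and 4.68 in siControl cells. These values overlapped, with a fold change of 0.17. COL5A1 (0.34) and COL5A2 (0.19), whose type V collagen limits fibril width, overlapped too. A second COL11A2 probe set above the filter level read 3.87 and 4.47 in siLSD1 cells, against 5.04 and 4.61 in siControl cells. Its difference was -0.66, on the other side of 0 from the brighter set, and its groups did not overlap. COL27A1, a fibrillar collagen of cartilage, was at 4.36 and 3.80 in siLSD1 cells and at 4.94 and 3.94 in siControl cells, so that replicate 1 was the higher array in both groups. Its fold change of -0.36 turned to 0.14 without siControl replicate 1.

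Type IV collagen, the basement membrane network, differed little between the groups by its brightest probe sets. COL4A2 had signals of 8.86 and 9.04 in siLSD1 cells and 8.94 and 8.72 in siControl cells, a fold change of 0.12 (95% interval -0.30 to 0.54). COL4A1 had signals of 8.37 and 8.64 in siLSD1 cells and 8.50 and 8.52 in siControl cells, a fold change of -0.0082 (95% interval -0.46 to 0.44). With the scaling as deposited it was 0.018. Groups overlapped for both genes of the shared promoter region printed above. A second probe set of each gene lay above the filter level. That of COL4A1 read 6.76 and 6.37 in siLSD1 cells against 7.29 and 6.68 in siControl cells. That of COL4A2 read 6.72 and 6.03 against 6.80 and 6.86. Differences of these second sets were -0.42 and -0.45, on the other side of 0 from the brighter COL4A2 set, and their siLSD1 replicate 2 values were the lowest of the 4 arrays.

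Other collagens were split into 3 positive and 3 negative fold changes among 6 tested members, with a median of 0.028. COL6A2, a chain of the beaded microfilaments of type VI collagen, was at 6.43 and 6.35 in siLSD1 cells, against 5.74 and 5.99 in siControl cells. Both siLSD1 arrays were above both siControl arrays, and the fold change was 0.53 (95% interval -0.10 to 1.16). Its only other probe set, which lay below the filter level, had a difference of -0.044. COL6A1, which assembles with it, was at 7.28 and 7.09 in siLSD1 cells and at 6.91 and 7.19 in siControl cells, so that the groups overlapped (0.14). COL18A1, the basement membrane collagen that yields endostatin, was at 5.81 and 6.21 in siLSD1 cells and at 6.03 and 6.38 in siControl cells, a fold change of -0.20.

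COL16A1, a collagen that attaches to the surface of fibrils, showed how far a single array could set a value. It was at 5.27 and 5.27 in siLSD1 cells, against 6.30 and 5.28 in siControl cells. The siLSD1 values were formally the lowest, and the fold change was -0.52 with all arrays and -0.0074 without siControl replicate 1. COL9A2, a chain of the type IX collagen that coats cartilage fibrils, had a fold change of 0.21, and COL22A1, a collagen of tissue junctions, of -0.079. Groups overlapped for both.

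Laminin genes held the member with the smallest p. LAMA1, the alpha chain of the laminin of early embryonic basement membranes, was at 7.42 and 7.49 in siLSD1 cells, against 6.73 and 6.81 in siControl cells. The arrays of each group were close to each other and the groups were apart. The fold change was 0.68 (95% interval 0.15 to 1.21), or 1.60-fold, with an unadjusted p of 0.018 in limma. It stayed between 0.64 and 0.72 when any 1 array was left out, but it did not pass the test (adjusted p = 0.9996).

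By their brightest probe sets, groups overlapped for the chains that LAMA1 joins in a trimer. LAMB1, a beta chain, was at 10.02 and 10.21 in siLSD1 cells and at 10.06 and 9.99 in siControl cells, a fold change of 0.088 (95% interval -0.21 to 0.38). LAMC1, the gamma chain common to most laminins, was at 9.69 and 9.71 in siLSD1 cells and at 9.77 and 9.52 in siControl cells, a fold change of 0.053 (95% interval -0.29 to 0.39). The intervals were among the narrowest of the members, but they cover the brightest probe sets alone. A second LAMC1 set above the filter level, at 7.14 on average, had a difference of -0.35, outside the interval of the brighter set. The second LAMB1 set read 9.39 and 9.59 in siLSD1 cells against 9.21 and 9.25 in siControl cells. Its difference was 0.26, and its groups did not overlap. LAMA5, the broadly expressed alpha chain of adult basement membranes, was at 7.16 and 7.28 in siLSD1 cells and at 7.36 and 7.12 in siControl cells, with a fold change of -0.018, or 0.026 with the scaling as deposited. LAMA4, an alpha chain of vessel and nerve basement membranes, had a fold change of 0.53 that was 0.12 without siLSD1 replicate 2. LAMB2, a beta chain of synaptic basement membranes, had one of 0.025. In all, 5 of 6 tested laminins were positive, with a median of 0.070 and 0 called.

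**Figure D3:**
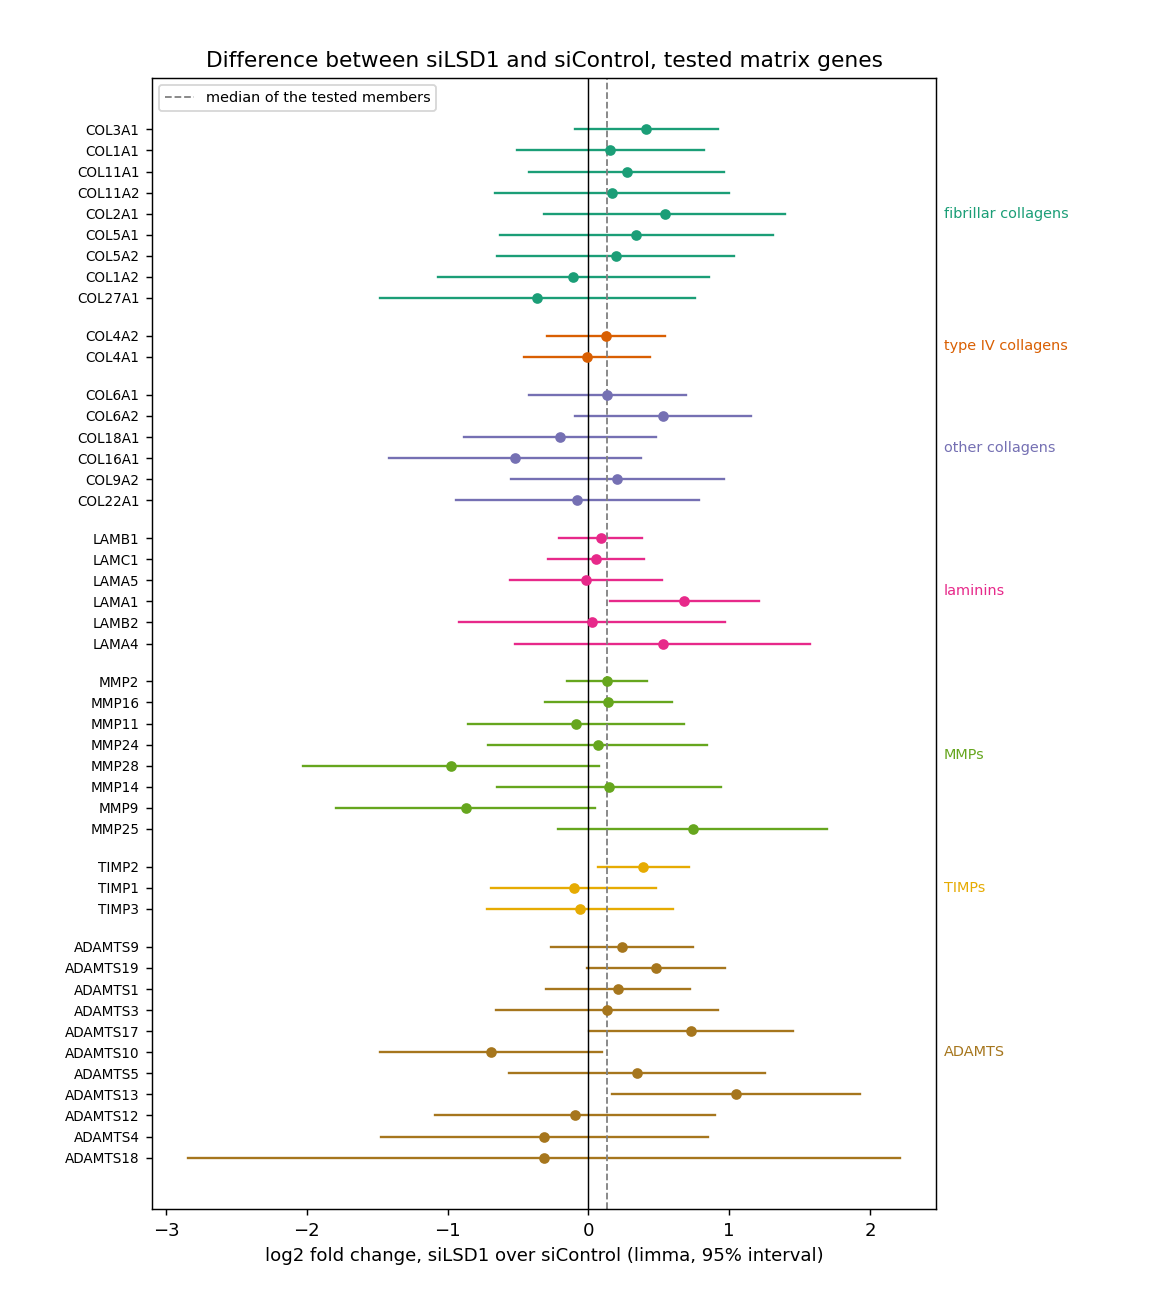
Log2 fold change of siLSD1 over siControl (x axis) for the 45 tested members (rows, coloured by family), with bars for the 95% interval from limma and a dashed line at the members' median of 0.13. Intervals of LAMA1, TIMP2, ADAMTS13 and ADAMTS17 lie above 0, before adjustment over the 11865 genes tested, and all others include 0.

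MMP genes had positive fold changes for 5 of 8 tested members and negative ones for 3, with a median of 0.099 and 0 called. MMP2, the gelatinase that degrades type IV collagen and denatured collagen, was at 10.20 and 10.38 in siLSD1 cells and at 10.21 and 10.09 in siControl cells. The groups overlapped, and the fold change was 0.13 (95% interval -0.15 to 0.42). MMP9, the other gelatinase, was at 3.93 and 4.35 in siLSD1 cells, against 5.25 and 4.77 in siControl cells. Both siLSD1 values were below both siControl values, the lower of them under the filter level, so the size of the difference is uncertain. The fold change was -0.87 (95% interval -1.79 to 0.046), with an unadjusted p of 0.060 in limma.

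MMP28, known as epilysin, had the most negative fold change of the tested members. It was at 3.96 and 5.13 in siLSD1 cells, against 5.78 and 5.26 in siControl cells. The groups did not overlap, although siLSD1 replicate 2 was close to siControl replicate 2, and the fold change of -0.98 (95% interval -2.03 to 0.072) was -0.39 without siLSD1 replicate 1. Its probe set is of a kind that can cross-hybridize, and without such sets the gene's value was 0.86, so no direction can be given. MMP11, a stromelysin-like enzyme of tumour stroma, was at 5.33 and 5.97 in siLSD1 cells and at 5.63 and 5.85 in siControl cells, a fold change of -0.089.

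Membrane-type MMPs, which are anchored to the cell surface and can activate the MMP2 proenzyme or cut matrix next to the cell, had 4 tested members out of 6, all with positive fold changes by their brightest probe sets (median 0.14). MMP16 was at 8.64 and 8.65 in siLSD1 cells and at 8.66 and 8.35 in siControl cells, a fold change of 0.14. Further MMP16 sets above the filter level had differences of 0.55, with groups that did not overlap, and -0.33, with groups that did. MMP24, a member known from the nervous system, was at 5.30 and 5.01 in siLSD1 cells and at 5.22 and 4.97 in siControl cells, a fold change of 0.065. In all 4, siControl replicate 2 was the lowest array. Without it MMP16 was at -0.011 and MMP24 at -0.059. MMP14, the main activator of the MMP2 proenzyme, was at 4.97 and 4.94 in siLSD1 cells and at 4.91 and 4.71 in siControl cells. The groups did not overlap, yet the fold change of 0.15 had an interval from -0.65 to 0.94. MMP25, the leukocyte member, was at 4.72 and 4.38 in siLSD1 cells, against 3.92 and 3.70 in siControl cells. Both of its siControl values were under the filter level, and its other probe set, which was below that level, read 2.35 and 2.46 in siLSD1 cells, against 3.43 and 4.15 in siControl cells. That difference was -1.38 against a fold change of 0.74 for the brighter set, so neither size nor direction can be given for MMP25.

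TIMP2, which inhibits MMPs and takes part in the activation of MMP2 by MMP14, was the TIMP with the smallest p. It was at 11.03 and 11.32 in siLSD1 cells, against 10.96 and 10.61 in siControl cells. All siLSD1 values were above all siControl values, by a margin smaller than the distance between arrays of a group. The fold change was 0.39 (95% interval 0.070 to 0.71), or 1.31-fold, with an unadjusted p of 0.023 in limma and no call (adjusted p = 0.9996). It was 0.22 without siControl replicate 2 and 0.56 without siControl replicate 1. A second probe set read 10.28 and 10.34 in siLSD1 cells against 9.79 and 9.996 in siControl cells, and a dimmer one read 6.06 and 6.12 against 6.24 and 6.52. The brighter probe sets of TIMP2 thus lay on one side, with differences of 0.39 and 0.41, and the dimmer one on the other, with -0.29. That set was also above the filter level, and its groups did not overlap.

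The other TIMPs overlapped between the groups. TIMP1, the broad MMP inhibitor also known as a growth-promoting factor, was at 7.93 and 7.94 in siLSD1 cells and at 8.35 and 7.73 in siControl cells, a fold change of -0.10 that turned to 0.096 under median centring. TIMP3, which binds to matrix and also inhibits ADAMTS enzymes, was at 6.19 and 6.51 in siLSD1 cells and at 6.19 and 6.63 in siControl cells, a fold change of -0.061. Its 3 other probe sets had differences of -0.77, -0.52 and -0.37, in each of which siLSD1 replicate 2 was the lowest array. TIMP4 did not pass the filter.

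ADAMTS genes had positive fold changes for 7 of 11 tested members and negative ones for 4, with a median of 0.21 and 0 called. ADAMTS13, the protease that cleaves von Willebrand factor, was at 5.49 and 5.08 in siLSD1 cells, against 4.01 and 4.47 in siControl cells. The groups were apart, and this was the most positive fold change of the tested members, at 1.05 (95% interval 0.17 to 1.93, 2.07-fold), with an unadjusted p of 0.025 in limma. A siControl value lay under the filter level, and the gene's other probe set, which was dim, had a difference of -0.67. ADAMTS17, an enzyme linked to fibrillin microfibrils, was at 5.60 and 5.82 in siLSD1 cells, against 5.04 and 4.93 in siControl cells, a fold change of 0.73 (95% interval 0.0045 to 1.45). Its groups were apart too.

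ADAMTS19, whose substrates are little known, was at 8.19 and 8.48 in siLSD1 cells, against 7.92 and 7.80 in siControl cells. The groups did not overlap, and the fold change was 0.48 (95% interval -0.0093 to 0.97), but a second probe set, at 6.26 on average, had a difference of -0.44. ADAMTS10, a further enzyme of the fibrillin microfibrils, was at 4.71 and 4.56 in siLSD1 cells, against 5.21 and 5.45 in siControl cells, a fold change of -0.69 (95% interval -1.48 to 0.095). By its brightest set it was on the opposite side from ADAMTS17, with groups that did not overlap either. That set is of a kind that can cross-hybridize, and the gene's other set, which was dim, had a difference of 0.0096. Other ADAMTS17 sets, also dim, had differences of 1.03 and -0.50, so the contrast between the genes is uncertain. Both genes had unadjusted p values close to or above 0.05 (0.049 for ADAMTS17 and 0.078 for ADAMTS10 in limma).

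None of the proteoglycan-cutting ADAMTS enzymes was called. ADAMTS9 was at 9.07 and 9.31 in siLSD1 cells and at 9.23 and 8.67 in siControl cells, a fold change of 0.24 that turned to -0.037 without siControl replicate 2. ADAMTS1 was at 7.999 and 8.02 in siLSD1 cells and at 7.97 and 7.63 in siControl cells, a fold change of 0.21 (95% interval -0.30 to 0.72), and it was 0.036 without that array. For both genes siControl replicate 2 was the low one. ADAMTS5 had a fold change of 0.34 (95% interval -0.57 to 1.25), with overlapping groups. A second ADAMTS5 probe set above the filter level read 5.10 and 5.40 in siLSD1 cells, against 3.77 and 4.78 in siControl cells, a difference of 0.97 with groups that did not overlap. ADAMTS4 was at 4.62 and 4.07 in siLSD1 cells and at 5.29 and 4.03 in siControl cells, and its fold change of -0.31 turned to 0.32 without siControl replicate 1. ADAMTS3, which trims procollagen, was at 6.81 and 7.20 in siLSD1 cells and at 7.34 and 6.40 in siControl cells, a fold change of 0.13. ADAMTS12 (-0.093) and ADAMTS18 (-0.31) overlapped as well.

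**Figure D4:**
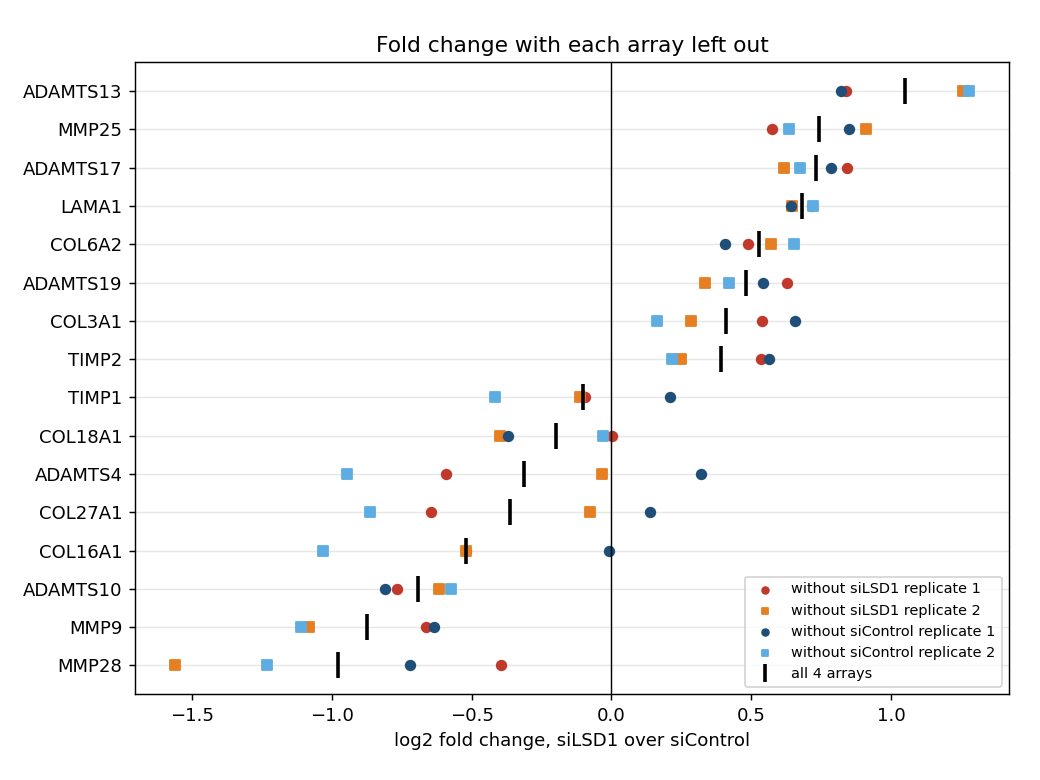
Log2 fold change of siLSD1 over siControl (x axis) with all 4 arrays (black ticks) and with each array left out (coloured points), for the 8 tested members with the smallest p in each direction (rows). LAMA1 keeps within 0.64 to 0.72, whereas COL16A1 spans -1.03 to -0.0074.

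Fold changes of 25 of the 45 tested members had another sign once 1 array was omitted, and those of 37 had another sign or a size over 1.5 times apart. Of the 20 that kept their sign, LAMA1, ADAMTS13, ADAMTS17, ADAMTS19, ADAMTS10, MMP9, MMP25 and COL6A2 also kept their size within that limit. That covers omitted arrays alone. With the mean of all probe sets, MMP25 turned to -0.32, and ADAMTS19 was at 0.020 and ADAMTS13 at 0.19. In that setting COL6A2 was at 0.24, ADAMTS17 at 0.42 and LAMA1 at 0.82. MMP9 had 1 probe set, and ADAMTS10 had no value there. COL6A2 was at -0.044 by its other probe set. Probe sets of a gene did not always point the same way. Of 16 tested members with further probe sets above the filter level, 6 had all sets positive, 3 had all negative and 7 had both signs. Among 24 such further sets, 17 had the sign of the brightest set. COL3A1 and COL1A1 were the fibrillar genes with 3 sets each, all positive, from 0.23 to 1.09 for COL3A1 and from 0.16 to 1.79 for COL1A1. The COL1A1 set at 1.79 read 6.31 and 5.73 in siLSD1 cells against 2.85 and 5.62 in siControl cells, so siControl replicate 1 set most of it.

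**Figure D5:**
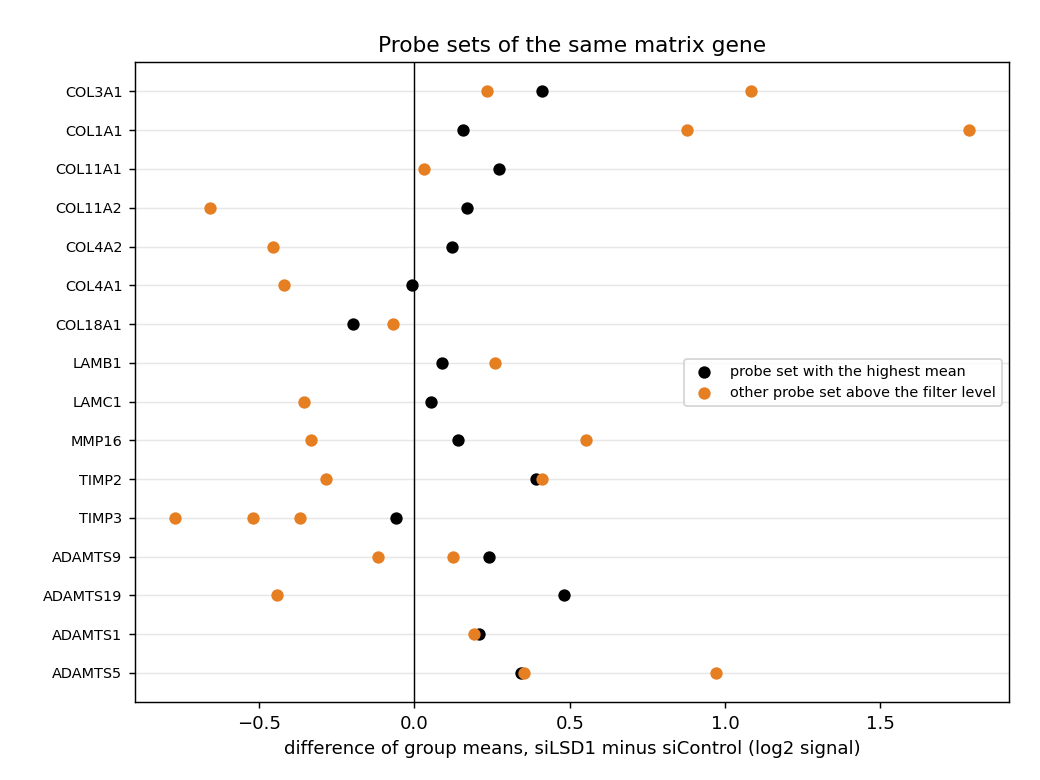
Difference of group means, siLSD1 minus siControl (x axis, log2 signal), for each probe set above the filter level of the 16 tested members with more than 1 such set (rows), with black points for the brightest set and orange points for the others. COL3A1, COL1A1, COL11A1, LAMB1, ADAMTS1 and ADAMTS5 lie to the right of 0 with every set, and TIMP3, COL4A1 and COL18A1 to the left.

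Partner genes of the matrix pathway were described in the same way, and 0 of them were called in limma (0% of all genes tested in either direction). Of 21 tested genes of collagen synthesis, folding and cross-linking, 11 had positive and 10 negative fold changes, with a median of 0.021. BMP1, the protease that trims fibrillar procollagens, had a fold change of 0.95 and an unadjusted p of 0.018, and COLGALT1, a collagen galactosyltransferase, had one of 0.64. The genes of this list with the highest signals were PPIB (-0.12), a prolyl isomerase of the endoplasmic reticulum, and PCOLCE (0.27), which enhances the work of BMP1.

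Basement membrane partners had positive fold changes for 8 of 10 tested genes, with a median of 0.43. PXDN, the peroxidase that cross-links type IV collagen, was at 9.81 and 9.92 in siLSD1 cells, against 9.51 and 9.37 in siControl cells. Its groups did not overlap, and the fold change was 0.42 with an unadjusted p of 0.018. NID1, a linker between laminin and type IV collagen, had a fold change of 0.45, and FBLN1, a fibulin, of -0.065. The list's median deviation was 0.063 and 0.34 on the siLSD1 arrays and 0.035 and -0.23 on the siControl arrays, with siControl replicate 2 again the lowest.

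Matrix receptors had positive fold changes for 9 of 11 tested genes, with a median of 0.15. ITGB1, the integrin beta chain of most collagen and laminin receptors, had a fold change of 0.064, and DDR2, a receptor kinase for fibrillar collagen, of 0.11. The syndecans SDC3 (0.94) and SDC1 (1.08) were the genes of the list with the smallest p, and in both siControl replicate 1 was far below the other arrays. Protease activators and inhibitors were split into 7 positive and 8 negative of 15 tested genes, with a median of -0.022. ADAM15, a membrane protease with a disintegrin domain, had a fold change of -0.76 (unadjusted p of 0.025), BSG, an inducer of MMPs, of -0.54, TFPI2, a matrix-bound protease inhibitor, of 0.063 and ADAM10, a sheddase, of 0.053.

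Fibroblast markers were measured beside the collagens because fibroblasts are a main source of matrix. Of 12 measured markers, 8 were above the filter level, 4 with positive and 4 with negative fold changes and a median of 0.067. PDGFRA (0.20), LUM (0.23) and FBN1 (0.51) had the highest signals of the list, and PDGFRB (0.94) was the 1 with an unadjusted p under 0.05. The summed linear signal of the list was 1413 and 1727 on the siLSD1 arrays, against 1606 and 1167 on the siControl arrays. The lowest sum was on siControl replicate 2, which also had the lowest value for 24 of the 45 members, and its part in the members' values was not tested. In RNA from a whole culture, fewer cells of a kind and less RNA per cell cannot be told apart. Summed signals of the noradrenergic list were 15840 and 15913 on the siLSD1 arrays, against 14907 and 19441 on the siControl arrays. Schwann and glial markers were below the filter level for all 5 measured genes (MBP, ERBB3 and SOX10 the highest), with sums of 52.3 and 31.2 on the siLSD1 arrays, against 50.1 and 32.1 on the siControl arrays. Endothelial markers were below it for 6 of 7 genes (PECAM1 above, then CLDN5 and TEK), with sums of 57.0 and 44.5 on the siLSD1 arrays, against 67.3 and 67.3 on the siControl arrays. Blood markers were below it for 7 of 8 genes (HBB above, then CD74 and MS4A1), with sums of 51.3 and 49.6 on the siLSD1 arrays, against 84.2 and 48.2 on the siControl arrays.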

How the data were processed

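Per the labels' protocols, total RNA was column-purified and biotin-labelled for Affymetrix arrays. The deposited values are log2 signals per probe set. Their base-2 antilogs average 100.0 per array after a 2% trim at both ends, as a scaling by the authors to a common level gives. How probe signals were summarised was not stated. Array medians differed by 0.27, above a tolerance of 0.25, so arrays were quantile normalized. Of 54675 probe sets, 41091 outside the controls had 1 gene symbol. The brightest set stood for each of 19775 genes, and 11865 genes at or above the 40th percentile were tested with limma 3.58.1 in R 4.3.3 (lmFit, eBayes with trend, two-sided, Benjamini-Hochberg over all genes tested, threshold 0.05). With 2 arrays per group, the number of arrays limits the precision, and p-values measure the spread between transfections. The fit was tested on simulated data.

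Members, families, the 4 lists of partner genes, the 5 marker lists and the tests were chosen with earlier results of these data known. Values in every array are given for the 4 brightest tested members per family, the 8 members per direction with the smallest p and some others. Of partner lists the 2 brightest genes and the 2 with the smallest p are named, and of marker lists the 3 brightest. Genes beyond this (second probe sets, PDGFRB) were named after their values were seen. No pairing of the arrays by number is stated. Deviations from group means of same-numbered arrays correlated at 0.052 over all genes tested. With 2 arrays per group, this value cannot settle whether same-numbered arrays were handled together. Other scalings, filters, probe set rules, a replicate term and omitted arrays were tried as alternatives.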

Additional observations from a re-analysis of the deposited data

How the results depend on the processing

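No member was called under any of the 12 alternatives. Of all genes tested, 13 of 11865 were called with the replicate block, and 0 in the other alternatives that kept all 4 arrays. For fits with an array left out, the number of all genes called is not given, as 1 group then had a single array. The alternatives of scaling and filter were deposited scaling, median centring, no filter and a filter at the 60th percentile. Those of probe sets were the mean of all probe sets and no sets with an _x_at or _s_at name. The others were no variance trend, the replicate block, and each array left out. In each alternative that kept its probe set, which has an _s_at name, KDM1A had the same direction. Among the alternatives that kept 2 arrays per group, KDM1A was called with the replicate block alone, which joins same-numbered arrays. Its values there were -1.32 and an adjusted p of 0.0194 in limma, with 13 genes called in all. Whether those arrays were paired is not known. With an array left out, KDM1A ran from -1.39 to -1.25. In each fit with 1 array left out, the spread comes from the group with 2 arrays alone. The lone array of the other group is assumed to vary like them. The 4 members at an unadjusted p under 0.05 (4 higher, 0 lower) became 7 under median centring (7 higher, 0 lower; 6.13% and 0.362% of all genes), 7 without a filter (5 higher, 2 lower; 2.11% and 1.74%), 7 without the trend (5 higher, 2 lower; 2.27% and 1.298%), and 1 to 6 with an array left out (1.85% to 14.8% of all genes in either direction). The members also changed: under the deposited scaling they were ADAMTS13, ADAMTS19, LAMA1 and MMP9, and under the mean of all probe sets COL1A1, MMP2 and MMP9, with 0 of the original 4. Counts of members with groups that do not overlap, for which leaving out arrays was chosen after seeing the data, became 16 to 28 above (all genes tested 25.5% to 41.4%) and 7 to 15 below (25.8% to 43.6%) with 1 array fewer to separate. Fold changes turned in these members, none of them called. Deposited scaling: COL4A1 (0.018), LAMA5 (0.026). Median centring: COL4A1 (0.19), LAMA5 (0.20), MMP11 (0.079), TIMP1 (0.096), TIMP3 (0.14). Mean of all probe sets: COL11A2 (-0.25), COL5A2 (-0.34), COL4A2 (-0.17), COL9A2 (-0.39), LAMC1 (-0.15), MMP24 (-0.12), MMP25 (-0.32). No _x_at or _s_at sets: COL11A2 (-0.66), COL6A2 (-0.044), MMP28 (0.86). With an array left out, the ranges that crossed 0 were COL1A1 (-0.16 to 0.47), COL11A2 (-0.10 to 0.44), COL5A1 (-0.13 to 0.81), COL5A2 (-0.029 to 0.42), COL1A2 (-0.41 to 0.20), COL27A1 (-0.86 to 0.14), COL4A1 (-0.14 to 0.13), COL6A1 (-0.0059 to 0.28), COL18A1 (-0.40 to 0.00065), COL22A1 (-0.25 to 0.091), LAMB1 (-0.0051 to 0.18), LAMC1 (-0.073 to 0.18), LAMA5 (-0.14 to 0.10), LAMB2 (-0.54 to 0.60), MMP16 (-0.011 to 0.29), MMP11 (-0.41 to 0.23), MMP24 (-0.078 to 0.21), TIMP1 (-0.42 to 0.21), TIMP3 (-0.28 to 0.16), ADAMTS9 (-0.037 to 0.52), ADAMTS3 (-0.34 to 0.60), ADAMTS5 (-0.040 to 0.73), ADAMTS12 (-0.46 to 0.27), ADAMTS4 (-0.94 to 0.32) and ADAMTS18 (-1.81 to 1.18). Causes were not tested. Of the 45 tested members, 15 kept their direction in every alternative that gave a value.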

Other observations

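The 52 members below the filter level varied more between arrays, with a median range of 1.87 over the 4 arrays, against 0.64 for the tested members. When all genes were fitted without a filter, 0 of these 52 were called in limma. An unadjusted p under 0.05 was reached by 1 of them in the higher and 2 in the lower direction, where 2.11% and 1.74% of all 19775 genes did so. COL26A1, a collagen of testis and ovary in mice, was at 0.999 and 1.55 in siLSD1 cells, against 4.04 and 3.10 in siControl cells. COL4A5, a type IV chain of kidney and other specialised basement membranes, was at -0.22 and 0.12 in siLSD1 cells, against 2.84 and 2.19 in siControl cells. LAMB4, a laminin beta chain, was at 3.35 and 2.81 in siLSD1 cells, against 1.59 and 0.76 in siControl cells. Groups were apart in all 3, at signals where the sizes are uncertain.

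ADAMTS18, an orphan protease, split by replicate number and not by siRNA in its brightest probe set. Its signal was 5.65 on siLSD1 replicate 1 and 2.67 on siLSD1 replicate 2, and 5.94 on siControl replicate 1 and 3.01 on siControl replicate 2. The SD within a group was thus 2.11 for siLSD1 and 2.07 for siControl (n = 2 each), while its fold change was -0.31. Both replicate 2 values lay under the filter level. The gene's other probe set, which was below that level, read 3.02 and 2.75 in siLSD1 cells, against 3.19 and 3.19 in siControl cells.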
